A study of Mus musculus with 9 samples.

Results

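Maternal mRNA storage and decay factors are the proteins that keep the egg's stock of messenger RNA silent and later remove it. The members are 10 genes named by symbol, and 10 of 10 were found among the 24454 genes of the count table: the CCR4-NOT adaptor Btg4, the deadenylases Cnot7 and Cnot6l, the 3′ UTR-binding protein Zfp36l2, the decapping proteins Dcp1a and Dcp2, and the storage proteins Cpeb1, Ybx2, Zar1 and Zar1l. All 10 had enough counts to be tested, among 16964 genes tested. RNA sequencing was done on 9 libraries of ICR mouse embryos, each from 3 pooled embryos at the 2-cell stage after culture from the zygote. The groups, of 3 libraries each, were embryos given high glucose and the serum of rats treated with the drug that the labels call ZGW (ZGW serum), embryos given high glucose alone (high glucose), and control embryos (control). The labels give no glucose concentration, and they do not say whether the high glucose and control embryos received any rat serum or from which matings the embryos came, so p-values measure the spread between these pools.

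A growing mouse oocyte stores many kinds of mRNA with short poly(A) tails. CPEB1 holds many of them through a U-rich 3′ UTR motif, the cytoplasmic polyadenylation element, while YBX2 (also called MSY2) coats mRNA and keeps it stable, and ZAR1 and its paralogue ZAR1L help to organise the store. At meiotic maturation some dormant mRNAs gain long tails and are translated, among them those for BTG4 and for the decapping proteins DCP1A and DCP2. BTG4 then brings the CCR4-NOT deadenylase to mRNA, ZFP36L2 recruits the same complex to AU-rich elements, decapping follows, and much of the maternal stock is gone by the time the embryonic genome is active. In pooled embryos, fewer cells of a kind and less RNA per cell cannot be told apart.

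The libraries held 11934924 to 16916343 counts. Markers of the 2-cell stage fitted the label, with 13 of the 13 markers found in the table above 10 CPM (counts relative to the TMM-scaled library total), but their summed level was 2593 to 6550 CPM with ZGW serum, 9397 to 18264 CPM under high glucose and 5389 to 14368 CPM in control. Oocyte markers summed to 16879 to 42278 CPM with ZGW serum, 13311 to 18282 CPM under high glucose and 19290 to 27468 CPM in control. This sum does not stand for most of the list. For high glucose against control 7 of the 12 oocyte markers were higher and 5 lower, with a median log2 fold change of 0.18. Of 12 cumulus and granulosa markers 0 were above 10 CPM, with sums of 3.91 to 7.66 CPM, 5.55 to 13.1 CPM and 8.72 to 21.5 CPM in the same order of groups. Of 8 blood cell markers 3 were above 10 CPM, with sums of 316 to 530 CPM with ZGW serum, 86.2 to 307 CPM under high glucose and 237 to 367 CPM in control. Of 8 markers of blastocyst lineages 2 were above 10 CPM, with sums of 56.0 to 72.1 CPM, 60.4 to 86.9 CPM and 81.3 to 123 CPM. The part of these marker differences in the results below was not tested. ZGW serum replicate 3 and control replicate 1 stood apart, each with a median Spearman correlation of 0.808 with the other libraries across genes, against 0.826 to 0.852 for the other 7.

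Per length, the factors covered a wide range of levels. Btg4 averaged 3475 TPM over the 9 libraries (TPM, counts per kilobase of exon scaled to the same total in each library), rank 29 of 23408 genes with a known length, and its lowest rank in any library was 75. Cnot7, the catalytic deadenylase that BTG4 binds, averaged 469.9 TPM at rank 299, and Cnot6l, a deadenylase of the other catalytic family in the complex, 99.0 TPM at rank 1247. The ranges of these 3 over the 9 libraries did not overlap. Ybx2 (63.3 TPM) and Zar1l (57.5 TPM) followed, then Dcp2 (36.0 TPM), Dcp1a (32.0 TPM), Zfp36l2 (20.1 TPM), Zar1 (17.2 TPM) and Cpeb1 (10.2 TPM), and the ranges of neighbours in this order overlapped over the 9 libraries. On this scale the message of the decay adaptor was the most abundant of the 10 in each library, while Cpeb1 had the lowest mean over the 9 libraries but not the lowest level in each: under high glucose Zar1 averaged 10.4 TPM and Cpeb1 10.9 TPM.

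**Figure D1:**
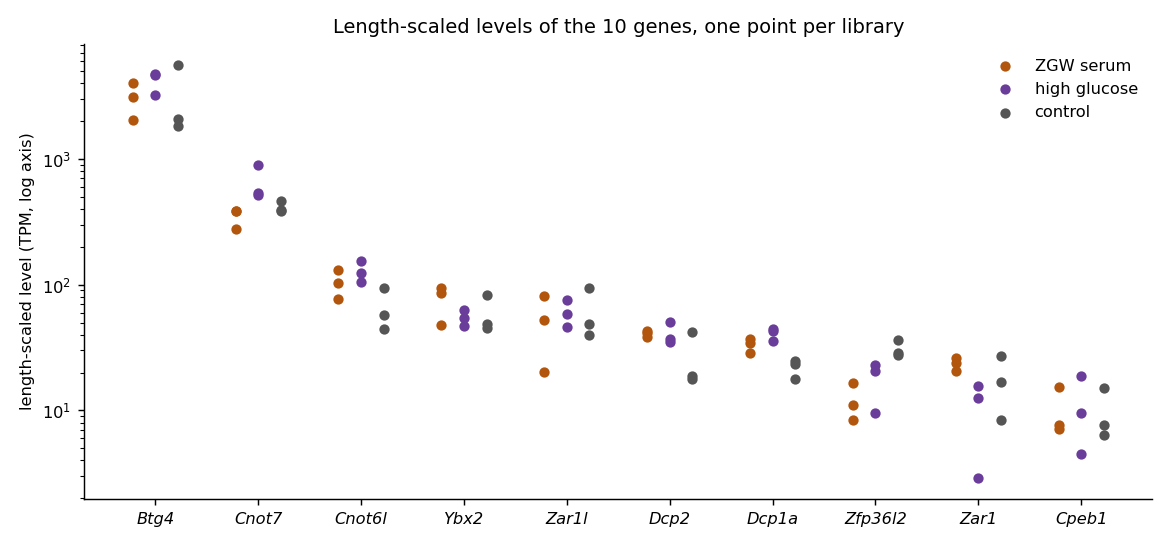
Length-scaled level (TPM, log axis) of each of the 10 genes in each of the 9 libraries, ordered by mean level, with ZGW serum, high glucose and control side by side. Btg4 lay at 1833 to 5620 TPM, above the other 9 genes in each library, and Cpeb1 had the lowest mean.

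Btg4, Cnot7 and Dcp1a encode proteins of the decay machinery and Ybx2 a storage protein, and the annotated 3′ ends of their mRNAs carry the letters that CPEB1 is known to bind. A cytoplasmic polyadenylation element, searched as TTTTAT or TTTTAAT on the mRNA strand, was present in the last 100 bases of 4 of the 9 members with a 3′ UTR of that length, against 17.9% of 19356 mouse 3′ UTRs. The nuclear polyadenylation signal, AATAAA or ATTAAA, was present there in 7 of the 9, against 78.6% of all. It was absent there in Btg4 and Ybx2. The AU-rich element, searched as TATTTAT, was present in 1 of the 9, against 4.32% of all. Over the whole 3′ UTR, and so beyond the 4 genes named, the cytoplasmic polyadenylation element was present in 8 of the 9, against 57.9% of all. The sites are shown because such elements are known to time the translation of stored mRNAs in the maturing oocyte, and gene counts do not tell which 3′ end was used. Each is 30 bases of 1 chosen GENCODE M21 transcript of the gene (GRCm38, the assembly that mm10 names), in the 3′ UTR exon, 5′ to 3′, with the elements in capitals.
Btg4: TTTTATgtctttttaaaagtttgatttaca
Cnot7: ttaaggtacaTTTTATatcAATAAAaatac
Dcp1a: TTTTAATAAAatttcaaaaccaagttttag
Ybx2: TTTTATgaactgtcatgtgccacctgagcc
The Btg4 site lies at chr9:51119809-51119838 on the plus strand, that of Cnot7 at chr8:40493036-40493065 on the minus strand, that of Dcp1a at chr14:30527021-30527050 on the plus strand and that of Ybx2 at chr11:69941544-69941573 on the plus strand. The last element of the window begins 20 bases before the end of the chosen transcript in Cnot7, whose annotated gene extends further. In the other 3 genes it begins 43 to 67 bases before that end. Dcp1a holds 2 elements in the window, of which the last, nearest to the transcript end, is shown. In Dcp1a this element and the polyadenylation signal overlap, and in Cnot7 they are separated by 3 letters. No match in a window says only that these letters are not in it.

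High glucose against control asks what the glucose load does to these factors. Of the decay genes, Zfp36l2 was lower in the fit and Btg4, Cnot7, Cnot6l, Dcp1a and Dcp2 were higher, with none called. Dcp1a, an activator of the decapping enzyme, was 1.65 times as high in the fit and the deadenylase Cnot6l 1.75 times as high, while Zfp36l2 was 0.512 times as high. In edgeR's quasi-likelihood fit, with Benjamini-Hochberg adjusted p at 0.05 as the threshold, 0 of the 10 genes passed and 0 of all 16964 genes did (0%). At an unadjusted p under 0.05, 3 of the 10 passed, against 7.39% of all genes. DESeq2 called 0 of the 10 (1.15% of all genes) and limma-voom 0. The groups did not overlap for 3 genes that were higher (6.84% of all genes were higher without overlap) and for 1 that was lower (6.91%).

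**Figure D2:**
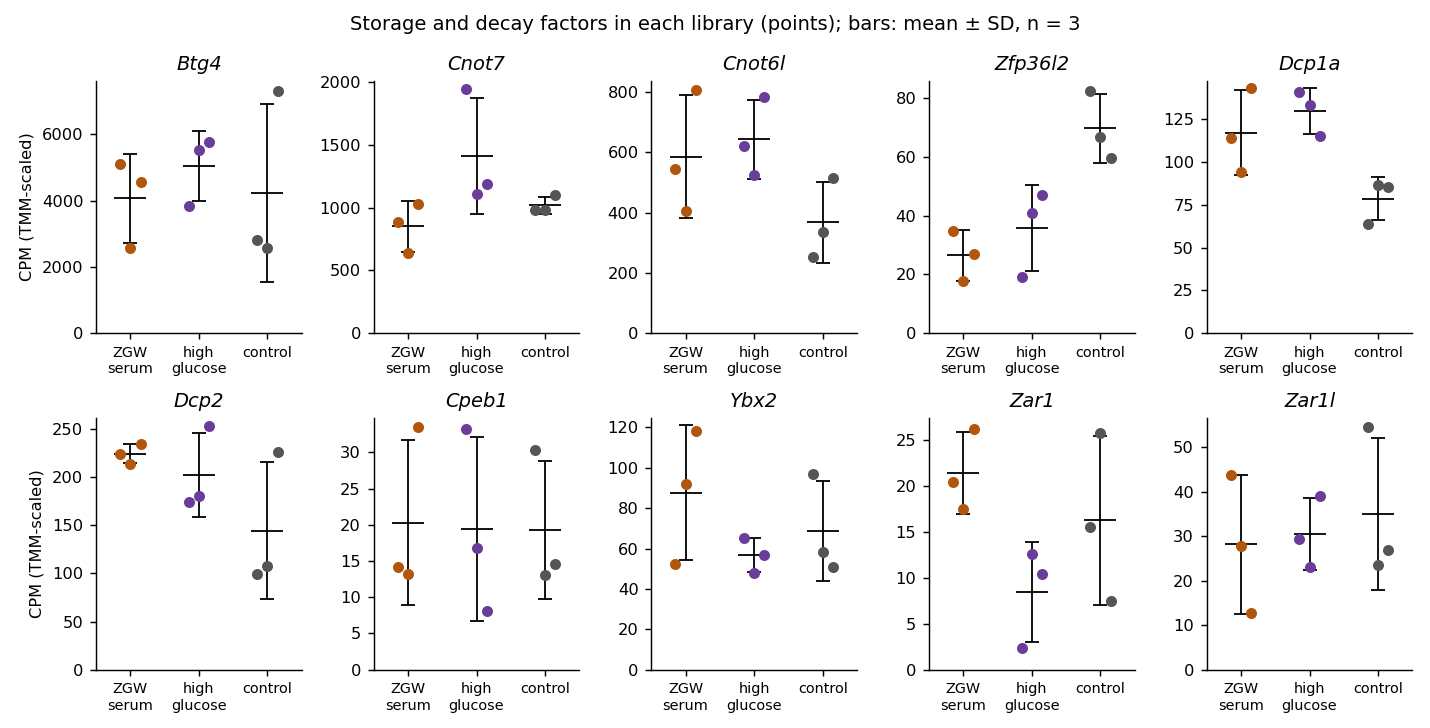
Level of each of the 10 genes (TMM-scaled CPM, axes from 0) with one point per library for ZGW serum, high glucose and control, and bars at the mean ± SD (n = 3). Zfp36l2 was at 17.6 to 47.0 CPM in the 6 glucose-loaded libraries and at 59.7 to 82.5 CPM in control, and Dcp1a was at 94.1 to 143 CPM in the 6 and at 64.1 to 86.8 CPM in control.

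Zfp36l2 encodes a zinc finger protein that binds AU-rich elements and recruits the deadenylase, and it is known for its part in mRNA loss in the mouse oocyte. The gene (chromosome 17, 84183931 to 84187947, minus strand, GRCm38) was at 19.1, 41.0 and 47.0 CPM in the 3 high glucose libraries, against 82.5, 66.9 and 59.7 CPM in control. The highest high glucose library lay below the lowest control library. The log2 fold change was -0.97 ± 0.41 (SE), with a 95% interval of -1.88 to -0.06 and an edgeR adjusted p of 0.672. Without high glucose replicate 1, the lowest library, it was -0.66. An exon of a gene on the other strand covers 105 bases of Zfp36l2, and the strand setting of the counts is not given in the sources used here.

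Dcp1a (chromosome 14, 30479535 to 30527063, plus strand) was at 141, 134 and 115 CPM under high glucose, against 64.1, 86.8 and 85.3 CPM in control. Each high glucose library was above each control library, and the gene varied little between libraries of a group: its within-group SD of 0.24 on the log2 scale was smaller than that of all but 4.07% of genes above 10 CPM. The log2 fold change was 0.72 ± 0.27 (95% interval 0.14 to 1.31, edgeR adjusted p = 0.627). It ran from 0.59 to 0.80 when any 1 library was left out. Dcp2, the catalytic subunit of the same enzyme, was at 174, 180.1 and 253 CPM under high glucose, against 99.4, 108 and 226 CPM in control. Control replicate 3 lay among the high glucose libraries, and the log2 fold change of 0.49 ± 0.33 was 0.93 without it, 0.28 without control replicate 1, 0.32 without control replicate 2 and 0.30 without high glucose replicate 3.

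Of the deadenylases, Cnot6l (chromosome 5, 96070333 to 96164171, minus strand) was at 620.3, 524 and 784 CPM under high glucose, against 251, 336 and 513 CPM in control, so the closest libraries were 524 and 513 CPM. Its log2 fold change was 0.81 ± 0.34 (95% interval 0.07 to 1.55, edgeR adjusted p = 0.656). Cnot7 (chromosome 8, 40492540 to 40515847, minus strand) was at 1944, 1105 and 1186 CPM under high glucose, against 978, 979 and 1097 CPM in control. The groups touched without overlap, and the log2 fold change of 0.47 ± 0.28 (edgeR adjusted p = 0.754) was 0.17 without high glucose replicate 1. Exons of Zdhhc2, on the other strand, cover 192 bases of Cnot7. Btg4 (chromosome 9, 51060901 to 51119875, plus strand) was at 3849, 5531 and 5782 CPM under high glucose, against 2801, 2557 and 7325 CPM in control. Control replicate 3 was the highest of all 9 libraries and the other 2 controls were among the lowest 3, so the log2 fold change of 0.26 ± 0.41 was 0.88 without control replicate 3 and 0.00 without control replicate 2.

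The storage genes had overlapping groups in this comparison. Zar1 was at 2.35, 12.6 and 10.4 CPM under high glucose, against 15.5, 25.7 and 7.45 CPM in control. Its log2 fold change was -0.94 ± 0.67 (95% interval -2.42 to 0.54), and 28.4% of the 50-base stretches in its transcripts are shared with other genes, so its value is uncertain. The fold change was -0.44 without control replicate 2, -0.49 without high glucose replicate 1 and -1.38 without high glucose replicate 2. Among the other 9 members the share of such stretches was at most 2.76%. Zar1l was at 29.5, 23.0 and 39.1 CPM under high glucose, against 54.6, 23.5 and 27.0 CPM in control (log2 fold change -0.20 ± 0.51). Ybx2 was at 65.2, 48.1 and 57.0 CPM under high glucose, against 97.1, 58.3 and 51.0 CPM in control (log2 fold change -0.28 ± 0.37). Both were higher rather than lower without control replicate 1, at 0.27 for Zar1l and 0.05 for Ybx2. Cpeb1 was at 33.1, 16.8 and 8.16 CPM under high glucose, against 30.3, 13.0 and 14.6 CPM in control, a log2 fold change of 0.00 ± 0.62 with a 95% interval of -1.37 to 1.38.

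**Figure D3:**
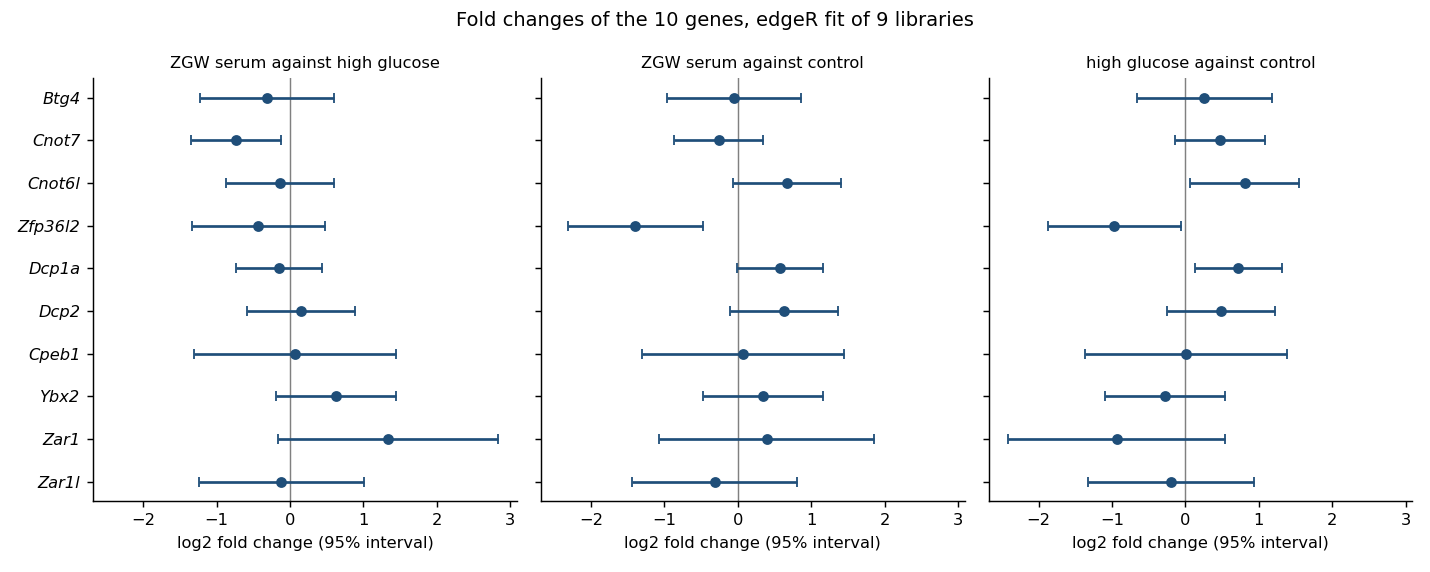
Log2 fold change of each of the 10 genes with its 95% interval, from edgeR's fit of all 9 libraries, for ZGW serum against high glucose, ZGW serum against control and high glucose against control. The intervals lie off 0 for Cnot7 in the first comparison, for Zfp36l2 in the second, and for Cnot6l, Zfp36l2 and Dcp1a in the third, before adjustment over all genes.

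ZGW serum against high glucose compares the 2 glucose-loaded groups, which by the labels differ in the ZGW serum. Whether their glucose concentrations were equal is not given. If the high glucose embryos received no rat serum, the drug cannot be told apart from the serum itself. The 2 genes whose groups did not overlap were Cnot7, lower at 0.602 times the level, and Zar1, higher at 2.52 times. Neither passed after Benjamini-Hochberg adjustment in edgeR, which called 0 of the 10 and 0% of all genes. Unadjusted p-values under 0.05 were found for 1 of the 10, against 8.68% of all genes. DESeq2 called 0 of the 10 (1.91% of all genes) and limma-voom 0. Without overlap, 8.26% of all genes were lower and 9.08% were higher.

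Cnot7 was at 882, 635 and 1031 CPM with ZGW serum, against 1944, 1105 and 1186 CPM under high glucose. The log2 fold change was -0.73 ± 0.28 (95% interval -1.35 to -0.12, edgeR adjusted p = 0.530), and it was -0.44 without high glucose replicate 1. The other deadenylase, Cnot6l, was at 544, 406 and 808 CPM with ZGW serum, against 620.3, 524 and 784 CPM under high glucose, with a log2 fold change of -0.13 ± 0.33. As a ratio of raw counts within a library, which no scaling between libraries enters, Cnot6l to Cnot7 stood at 0.616, 0.638 and 0.783 with ZGW serum, at 0.319, 0.474 and 0.661 under high glucose, and at 0.257, 0.344 and 0.468 in control. The ZGW serum libraries were above all 3 control libraries in this ratio and overlapped with high glucose. The ratio was chosen after the values were seen.

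Zar1 was at 20.4, 17.5 and 26.2 CPM with ZGW serum, against 2.35, 12.6 and 10.4 CPM under high glucose. Its log2 fold change of 1.34 ± 0.68 (95% interval -0.16 to 2.83, edgeR adjusted p = 0.614) was 0.89 without high glucose replicate 1, where the gene had 31 counts. Its paralogue Zar1l was at 43.9, 27.9 and 12.7 CPM with ZGW serum, against 29.5, 23.0 and 39.1 CPM under high glucose, and so overlapped (log2 fold change -0.12 ± 0.51). Ybx2 was at 52.2, 92.1 and 118 CPM with ZGW serum, against 65.2, 48.1 and 57.0 CPM under high glucose, with a log2 fold change of 0.63 ± 0.37 that was 0.37 without ZGW serum replicate 3. ZGW serum replicates 2 and 3 were above all high glucose libraries and replicate 1 was within their range. Cpeb1 was at 14.2, 13.2 and 33.4 CPM with ZGW serum, against 33.1, 16.8 and 8.16 CPM under high glucose (log2 fold change 0.06 ± 0.62).

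Btg4 was at 5108, 2557 and 4555 CPM with ZGW serum, against 3849, 5531 and 5782 CPM under high glucose (log2 fold change -0.31 ± 0.42, 95% interval -1.23 to 0.61). Without ZGW serum replicate 2 the log2 fold change was -0.06. Zfp36l2 was at 34.9, 17.6 and 27.0 CPM with ZGW serum, overlapping with 19.1, 41.0 and 47.0 CPM under high glucose. For Zfp36l2 the log2 fold change of -0.43 ± 0.41 ran from -0.74 without high glucose replicate 1 to -0.19 without high glucose replicate 3. The decapping genes were close between these groups: Dcp1a was at 114, 94.1 and 143 CPM with ZGW serum, against 141, 134 and 115 CPM under high glucose, with a log2 fold change of -0.15 ± 0.26 and a 95% interval of -0.73 to 0.44. Dcp2 was at 225, 214 and 234 CPM with ZGW serum, against 174, 180.1 and 253 CPM under high glucose (log2 fold change 0.15 ± 0.33, 95% interval -0.58 to 0.88).

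ZGW serum against control asks how far treated, glucose-loaded embryos stood from control embryos. Zfp36l2 was at 34.9, 17.6 and 27.0 CPM with ZGW serum, against 82.5, 66.9 and 59.7 CPM in control, 0.380 times the level in the fit. The groups lay well apart, and the log2 fold change was -1.40 ± 0.42 (95% interval -2.32 to -0.48). It did not pass edgeR's quasi-likelihood test (adjusted p = 0.402) and passed DESeq2's (adjusted p = 0.0360), with adjusted p-values from 0.0360 to 0.757 over all alternatives and log2 fold changes from -1.65 to -1.20. By edgeR 0 of the 10 genes and 0% of all genes were called, by limma-voom 0 of the 10, and by DESeq2 1 of the 10, against 2.76% of all genes. At an unadjusted edgeR p under 0.05 it was 1 of the 10, against 9.86%.

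Dcp1a was at 114, 94.1 and 143 CPM with ZGW serum, above the 64.1, 86.8 and 85.3 CPM of control, with a log2 fold change of 0.57 ± 0.27 (95% interval -0.01 to 1.16, edgeR adjusted p = 0.513). Without both ZGW serum replicate 3 and control replicate 1 it was 0.30. Zfp36l2 and Dcp1a were the 2 genes whose groups did not overlap here, where 7.30% of all genes were lower and 9.02% higher in that way. Dcp2 was at 225, 214 and 234 CPM with ZGW serum, against 99.4, 108 and 226 CPM in control, with control replicate 3 inside the ZGW serum range. For Dcp2 the log2 fold change of 0.64 ± 0.33 was 1.08 without control replicate 3 and 0.42 without control replicate 1. Cnot6l was at 544, 406 and 808 CPM with ZGW serum, against 251, 336 and 513 CPM in control. Its log2 fold change was 0.67 ± 0.33, 0.39 without ZGW serum replicate 3, and 0.19 without both ZGW serum replicate 3 and control replicate 1.

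The remaining members overlapped between ZGW serum and control. Cnot7 had a log2 fold change of -0.26 ± 0.28, Btg4 of -0.05 ± 0.41, Ybx2 of 0.35 ± 0.37, Zar1 of 0.40 ± 0.66, Zar1l of -0.31 ± 0.51 and Cpeb1 of 0.07 ± 0.62. Zfp36l2 and Dcp1a thus stood on opposite sides of control in both glucose-loaded groups, which share the control libraries. The ratio of their raw counts within a library, chosen after the values were seen, was 0.306, 0.186 and 0.188 with ZGW serum, 0.135, 0.306 and 0.409 under high glucose, and 1.29, 0.771 and 0.700 in control. On the length-scaled TPM scale, which uses no TMM factor, the same separation from control was found for Zfp36l2, at 8.35 to 16.5 TPM with ZGW serum, 9.51 to 23.0 TPM under high glucose and 27.4 to 36.3 TPM in control. For Dcp1a it was 28.4 to 36.9 TPM, 35.6 to 44.5 TPM and 17.8 to 24.8 TPM in the same order.

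The 10 genes did not share a direction. Under high glucose 6 of the 10 were higher than in control (49.0% of all genes were), with a median log2 fold change of 0.13 against -0.02 for all genes tested. These 6 include Cpeb1, whose log2 fold change of 0.0037 is close to none. With ZGW serum 6 of the 10 were lower than under high glucose and 4 higher (49.9% and 50.1% of all genes), with a median of -0.13 against 0.00 for all genes. Against control, 6 of the 10 were higher with ZGW serum (50% of all genes), with a median of 0.21 against 0.00. By share of all counts the 10 genes made up 0.740%, 0.453% and 0.659% with ZGW serum, 0.651%, 0.793% and 0.806% under high glucose, and 0.437%, 0.415% and 0.920% in control, of which Btg4 was the largest part in each library. Without Btg4 the other 9 held 0.203%, 0.169% and 0.229% with ZGW serum, 0.286%, 0.217% and 0.243% under high glucose, and 0.163%, 0.165% and 0.204% in control. The high glucose libraries lay above control in this sum, with 0.217% and 0.204% as the nearest pair. Cnot7 had the most counts of the 9 in each library, and Zfp36l2, Ybx2, Zar1 and Zar1l were lower than control in the fit. How often sums of other genes separate in this way was not tested.

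The within-group SD on the log2 scale was 0.24 for Dcp1a, 0.33 for Cnot7, 0.42 for Dcp2, 0.45 for Cnot6l, 0.47 for Ybx2, 0.52 for Zfp36l2, 0.60 for Btg4, 0.68 for Zar1l, 0.82 for Cpeb1 and 0.94 for Zar1, against a median of 0.57 for genes above 10 CPM. The 3 storage genes of lowest count thus had the largest spread between libraries of a group. Btg4, the gene with the most counts, came next at 0.60, and the cause of the spread was not tested. The Btg4 profile over the 9 libraries was closest, by root mean square difference of centred log2 CPM among 7525 other genes above 10 CPM, to C87977 (0.15), Chn1 (0.23) and Ap2b1 (0.23). C87977 shares 24% of its stretches with other genes, so its own counts are uncertain. The mean profile of the 10 was closest to Ahsa1 (0.12), Ppp2r5d (0.13) and Rreb1 (0.14). That profile was itself nearly flat, from -0.24 in ZGW serum replicate 2 to 0.27 in ZGW serum replicate 3. A gene that varies little is therefore close to it by this measure, and no likeness to the members is read from these 3 genes.

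The partners of these factors were read from 7 lists with 105 genes tested, of which edgeR's quasi-likelihood test called 0 in each comparison. Other CCR4-NOT subunits and deadenylases had 8 of 16 higher and 8 lower under high glucose against control (median log2 fold change 0.06), 11 of 16 lower with ZGW serum against high glucose (median -0.46) and 11 of 16 lower against control (median -0.25). Cnot11, a subunit of the complex, was at 36.0, 39.1 and 39.4 CPM with ZGW serum, against 15.9, 6.85 and 21.0 CPM under high glucose (log2 fold change 1.39 ± 0.45, edgeR adjusted p = 0.470). Cnot1, the scaffold of the complex, averaged 43.6 ± 15.99 CPM with ZGW serum and 76.5 ± 17.7 CPM under high glucose (SD, n = 3). The groups overlapped for Cnot1 (edgeR adjusted p = 0.569). Angel2, of the same nuclease superfamily as Cnot6l, averaged 437 ± 117 CPM under high glucose and 280.4 ± 35.9 CPM in control. Its groups overlapped as well (edgeR adjusted p = 0.649). The BTG and TOB adaptors other than Btg4 were lower in 5 of 5 under high glucose against control (median -0.28), in 2 of 5 with ZGW serum against high glucose (median 0.15) and in 4 of 5 against control (median -0.45), and the groups overlapped for each.

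Among other 3′ UTR-binding recruiters of decay, 8 of 14 were lower under high glucose against control (median -0.13), 11 of 14 lower with ZGW serum against high glucose (median -0.42) and 8 of 14 lower against control (median -0.37). Ythdf2, a reader of methylated adenosine that is needed for maternal mRNA loss in mouse, was at 202, 174 and 74.5 CPM with ZGW serum, 295, 282 and 312 CPM under high glucose, and 602, 628 and 383 CPM in control. The 3 groups did not overlap with each other. How often all 3 groups separate among other genes was not tested. Of the 50-base stretches of Ythdf2, 7.49% are shared with other genes. Its log2 fold change was -1.84 ± 0.36 for ZGW serum against control (edgeR adjusted p = 0.338) and -0.98 ± 0.36 against high glucose (edgeR adjusted p = 0.512). Khsrp, which binds AU-rich elements, was at 140.3, 65.4 and 53.3 CPM with ZGW serum, 204, 148 and 192 CPM under high glucose and 192, 309 and 168 CPM in control. Ythdf3, a related reader, was at 352, 318 and 291 CPM under high glucose, against 192, 198 and 230 CPM in control (log2 fold change 0.63 ± 0.22, edgeR adjusted p = 0.627).

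Decapping and 5′ decay genes had 11 of 16 lower under high glucose against control (median log2 fold change -0.38), with 6 of 16 lower and 2 of 16 higher without overlap (6.91% and 6.84% of all genes). With ZGW serum against high glucose 10 of 16 were higher (median 0.22), and against control 9 of 16 were lower (median -0.12). Lsm7, of the ring that binds the 3′ end of deadenylated mRNA, was at 208, 339 and 344 CPM with ZGW serum, 36.4, 103 and 115 CPM under high glucose and 143, 164 and 154 CPM in control. Its log2 fold change was 1.81 ± 0.40 for ZGW serum against high glucose (edgeR adjusted p = 0.370), and 14.3% of its 50-base stretches are shared with other genes. Lsm2 of the same ring averaged 46.6 ± 6.77 CPM under high glucose and 83.8 ± 9.56 CPM in control (SD, n = 3). Uridylation and 3′ decay genes had 11 of 19 lower under high glucose against control (median -0.02), 11 of 19 lower with ZGW serum against high glucose (median -0.03) and 11 of 19 higher against control (median 0.05). Exosc2, an exosome subunit, was at 71.7, 68.2 and 151 CPM with ZGW serum, against 16.6, 40.0 and 32.6 CPM under high glucose (log2 fold change 1.71 ± 0.45, edgeR adjusted p = 0.401), and shares 11.9% of its stretches.

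Genes of mRNA storage and masking had 14 of 20 higher under high glucose against control (median log2 fold change 0.30), 14 of 20 lower with ZGW serum against high glucose (median -0.21) and 11 of 20 higher against control (median 0.10). Lsm14a, a storage-granule protein, was at 771, 577 and 621 CPM under high glucose, against 333, 336 and 519.6 CPM in control (log2 fold change 0.73 ± 0.25, edgeR adjusted p = 0.627). Ybx3, a paralogue of Ybx2, was at 220.5, 215 and 369 CPM with ZGW serum, against 129, 112 and 155 CPM in control (log2 fold change 1.02 ± 0.35, edgeR adjusted p = 0.415). Genes of the cytoplasmic polyadenylation list were higher in 11 of 15 under high glucose against control (median 0.10). With ZGW serum 13 of 15 were lower against high glucose (median -0.63) and 13 of 15 lower against control (median -0.35). The list also holds general polyadenylation genes such as Papola and Cpsf2. Its summed level overlapped between groups. It was 1444 to 1705 CPM with ZGW serum, 1595 to 1792 CPM under high glucose and 1427 to 1597 CPM in control. Papd4, the cytoplasmic poly(A) polymerase also called Gld2, was 1 of the 2 genes of this list that were higher than in control, at 409, 309.97 and 399 CPM with ZGW serum, against 216, 189 and 303 CPM in control (log2 fold change 0.66 ± 0.29, edgeR adjusted p = 0.499).

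**Figure D4:**
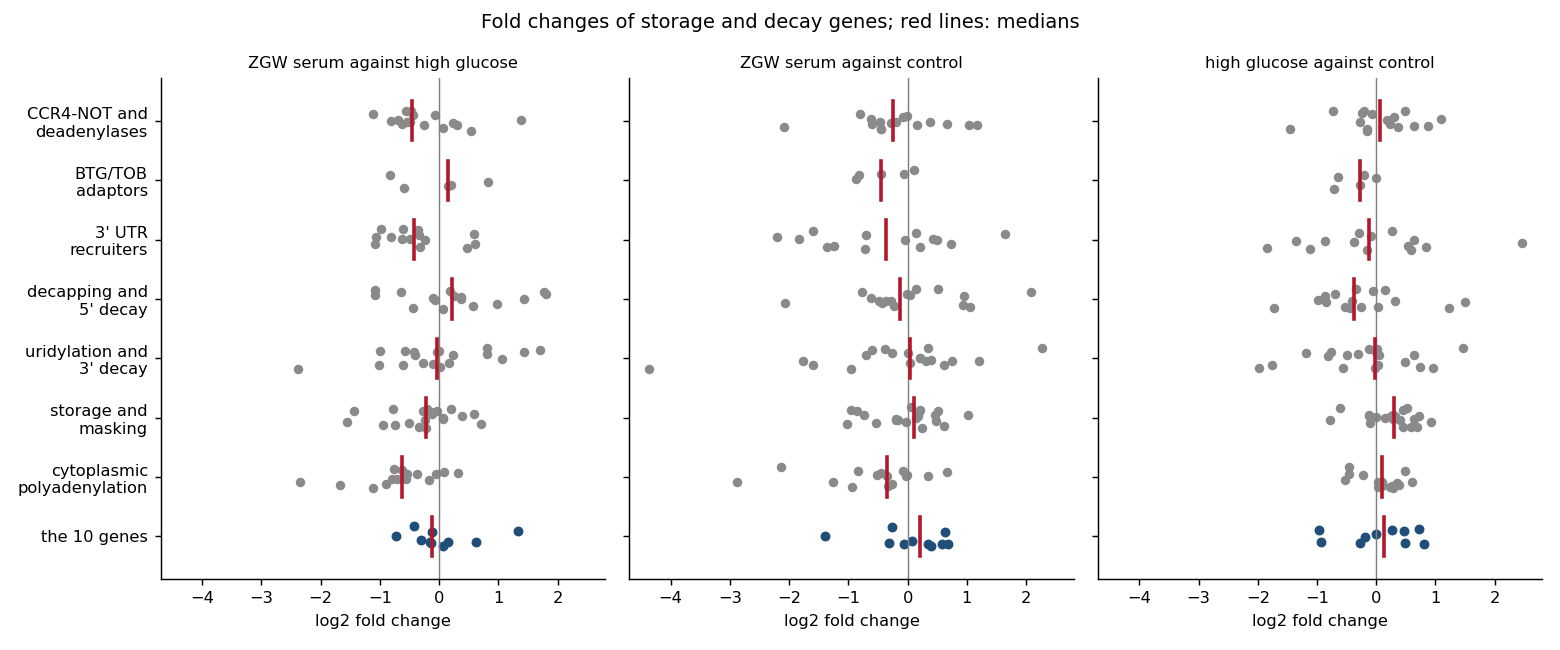
Log2 fold change of each tested gene in the 7 partner lists (grey) and of the 10 genes (blue) for ZGW serum against high glucose, ZGW serum against control and high glucose against control, with the median of each list as a red line. The cytoplasmic polyadenylation list, which also holds general polyadenylation genes, has the lowest median for ZGW serum against high glucose (-0.63). The 10 genes have medians of -0.13, 0.21 and 0.13 in the 3 comparisons.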

How the data were processed

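The deposited values are whole read counts for each gene symbol, not normalized by the authors. Per the submitters' processing notes, Trim Galore and the build mm10 were used. Not given in the sources used here were the aligner, the counter, the annotation and the strand setting. Groups came from the labels, and each replicate pair differed by more than sampling noise (chi-square per degree of freedom 46.5 to 124).

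Counts were tested with edgeR 4.0.16 (R 4.3.3): TMM factors, a minimum count of 10, robust quasi-likelihood fits, 1 mean per group over all 9 libraries, and Benjamini-Hochberg adjustment over 16964 genes at 0.05. The code was tested on simulated data. Standard errors came from the fold change and the F statistic. Log2 CPM used a prior count of 0.5. TPM used merged exons of GENCODE M21 (GRCm38), matched by symbol for 23408 genes. DESeq2 1.42.0 and limma-voom 3.58.1 were alternatives. Members and lists were chosen with earlier results of these data known. All members were described. From each list the 2 genes of lowest p-value above 10 CPM per comparison could be named, and likeness genes were the 3 closest.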

Additional observations from a re-analysis of the deposited data

How the results depend on the processing

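Over 510 alternative fold changes of the 10 genes, 475 kept their direction and side of the threshold, 34 changed sign and 1 newly passed (Zfp36l2 for ZGW serum against control, by DESeq2, -1.44). DESeq2 called 204, 315 and 455 genes for high glucose against control, ZGW serum against high glucose and ZGW serum against control, where edgeR called 0, and 1 of the 10 in the last. For ZGW serum against control 1 gene was called with no filter, with 10 counts in 6 libraries, and by limma-voom. Other counts of calls were 0, without each library in turn as well. The cause of these differences was not tested.

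Sign changes of Cpeb1 for high glucose against control were -0.0103 with RLE factors, -0.028 with 10 counts in 6 libraries, -0.0041 with only 2 groups, -0.0037 by DESeq2 and -0.28 by limma-voom, and for ZGW serum against control -0.0275 by limma-voom. Btg4 for ZGW serum against control was 0.0638 with the replicate block and 0.14 by limma-voom. The block changed no call, and deviations of same-numbered samples had correlations from -0.0076 to 0.0924. The labels state no pairing, and whether these samples share an origin was not tested further. Leaving out 1 library gave, for high glucose against control, 0 to 0.88 for Btg4, -0.63 to 0.48 for Cpeb1, -0.48 to 0.0537 for Ybx2 and -0.41 to 0.27 for Zar1l. For ZGW serum against high glucose it gave -0.41 to 0.0746 for Cnot6l, -0.48 to 0.70 for Cpeb1 and -0.59 to 0.26 for Zar1l, and against control -0.32 to 0.57 for Btg4, -0.47 to 0.55 for Cpeb1 and -0.79 to 0.15 for Zar1l. With ZGW serum replicate 3 and control replicate 1 both removed, an alternative added after seeing the data, Ybx2 was 0.0465 and Zar1l 0.26 for high glucose against control, Cpeb1 -0.47 and Zar1l 0.27 for ZGW serum against high glucose, and Zar1l 0.53 against control. Cpeb1, Zar1 and Zar1l had the fewest counts, down to 31, and the widest intervals.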
